A study of Mus musculus with 106 samples.

Results

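The receptors for the colony-stimulating factors are the products of 5 genes, Csf1r, Csf2ra, Csf2rb, Csf2rb2 and Csf3r, taken by name from the 21938 protein-coding genes of the mouse annotation. Csf1r encodes the receptor for macrophage colony-stimulating factor (M-CSF) and interleukin 34, a tyrosine kinase on which macrophages depend for growth and survival. Csf3r encodes the receptor for granulocyte colony-stimulating factor and is known for driving neutrophil production. Csf2ra encodes the ligand-binding alpha chain for granulocyte-macrophage colony-stimulating factor, and Csf2rb encodes the beta chain that it shares with the receptors for interleukin 3 and interleukin 5. Csf2rb2, a near-identical neighbour of Csf2rb in the mouse, encodes a beta chain that serves the interleukin 3 receptor.

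Chromatin immunoprecipitation followed by sequencing (ChIP-seq) had been run for H3K27ac, an acetylation found at enhancers and promoters in use, and for H3K4me3, a methylation of promoters in use, in C57BL/6J mice aged 12 to 14 weeks that were either controls or diabetic. Diabetes was induced with streptozotocin, which destroys pancreatic beta cells, at 42 to 45 mg/kg per day for 5 days; tissue was collected 6 weeks afterwards, with blood glucose above 13.9 mmol/L. Cells labelled HSC were bone marrow from which cells carrying CD3, CD4, B220, Ter119 or Gr1 had been removed, a mixture of stem and progenitor cells rather than purified stem cells. Bone marrow-derived macrophages (BMDM) were grown from marrow for 7 days at 5 mmol/L glucose in medium conditioned by L929 cells, a usual source of M-CSF, so that every BMDM library came from cells supplied with the ligand of Csf1r. They were then left unstimulated or given lipopolysaccharide (LPS) at 100 ng/mL with interferon-γ (IFN-γ) at 10 ng/mL for 16 hours. Each mark was read in 35 libraries, 6 in every group but unstimulated diabetic BMDM, which held 5 because replicate 3 is not analysed here.

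For each library a list of intervals rich in fragments (peaks) was used. The 70 lists held 13730 to 277213 peaks (median 110154), and 5 H3K4me3 lists, all of them from HSC, held fewer than 50000. Sequencing depth is not given in the lists, so signal could not be compared between libraries directly. Instead the peaks of a list were ranked by their −log10 p, rank 1 being the strongest, and a gene took the rank of the best peak touching its promoter (1 kb to either side of any annotated start site). For tests the rank became a rank score, log2(50000 / rank), which rises by 1 each time the rank number is divided by 2 and is 0 where no peak of rank 50000 or better was listed. A change in rank is a change relative to the other peaks of the same library, and in these bulk samples fewer cells carrying a mark and less mark per cell cannot be told apart.

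The labelled cell types were checked against marker genes by H3K27ac at promoters. The summed rank score of 8 macrophage markers was 1.53 to 5.90 in HSC and 5.94 to 19.8 in unstimulated BMDM, with a narrow gap and no overlap. Erythroid markers summed to 6.15 to 11.7 in HSC and 2.27 to 4.69 in unstimulated BMDM. Sums of the 8 stem and progenitor markers did overlap. Their lowest sum in HSC was 10.64 and their highest in unstimulated BMDM was 13.042. Across all promoters, 0 of 12 HSC libraries resembled BMDM more than HSC in H3K27ac, but 7 of 23 BMDM libraries resembled the other stimulation state more than their own, namely replicates 1, 2, 3, 5 and 6 of unstimulated control BMDM, replicate 5 of control LPS+IFN-γ BMDM and replicate 6 of diabetic LPS+IFN-γ BMDM. Promoter and tile fits were recomputed without 3 of them that earlier work on these data had put in doubt (unstimulated control 5 and 6 and control LPS+IFN-γ 5), and also within diabetic mice, where 5 of 5 unstimulated libraries stood closest to their own state. In H3K4me3 12 of 23 BMDM libraries stood closer to another state and 2 of 12 HSC libraries closer to BMDM. Markers of other lineages were present too: 2 of 4 tested neutrophil-lineage markers (Elane and Mpo, granule enzymes of granulocyte precursors), 4 of 4 erythroid markers and 1 of 2 T-lymphoid markers (Lck, a T cell kinase) were higher in HSC than in unstimulated BMDM, as were 6 of 8 stem and progenitor markers, while 0 of 4 B-lymphoid markers were. Of 6 markers of stimulated macrophages 0 were called after LPS+IFN-γ by limma (median difference 0.31), and 3 were lower in HSC than in unstimulated BMDM.

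In GRCm38 coordinates Csf3r lies at chr4:126024550-126044440 (ENSMUSG00000028859.14, plus strand) and Csf2ra at chr19:61223957-61228429 (ENSMUSG00000059326.7, minus strand). Csf2rb2 at chr15:78282507-78305721 (ENSMUSG00000071714.7, minus strand) and Csf2rb at chr15:78325752-78353847 (ENSMUSG00000071713.6, plus strand) point away from each other, and because of their likeness the assignment of reads between them is uncertain. The genes have 4 to 7 annotated start sites each, so their promoter windows covered 2.31 kb for Csf2rb, 4.10 kb for Csf2rb2, 4.31 kb for Csf1r, 4.94 kb for Csf2ra and 6.18 kb for Csf3r, and a longer window has more room for a peak.

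The 250 bases before the RefSeq start (GRCm38.p6, 5′ to 3′ along the gene) are shown for the members that the RefSeq table holds, Csf2ra at chr19:61228419-61228668 (minus strand), Csf2rb2 at chr15:78305722-78305971 (minus strand) and Csf3r at chr4:126024409-126024658 (plus strand), since Csf2ra and Csf2rb2 had the best and the poorest median H3K27ac rank of the family and Csf3r came next to Csf2ra; capitals mark GGAA, the core of sites bound by ETS factors such as the macrophage regulator PU.1, on either strand, and the C/EBP-type motif TTNCNNAA.
Csf2ra: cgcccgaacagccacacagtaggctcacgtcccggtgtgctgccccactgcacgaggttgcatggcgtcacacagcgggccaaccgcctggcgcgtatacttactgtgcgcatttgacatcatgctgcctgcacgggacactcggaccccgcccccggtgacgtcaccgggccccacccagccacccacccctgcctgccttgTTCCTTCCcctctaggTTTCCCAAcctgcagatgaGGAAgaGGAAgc
Csf2rb2: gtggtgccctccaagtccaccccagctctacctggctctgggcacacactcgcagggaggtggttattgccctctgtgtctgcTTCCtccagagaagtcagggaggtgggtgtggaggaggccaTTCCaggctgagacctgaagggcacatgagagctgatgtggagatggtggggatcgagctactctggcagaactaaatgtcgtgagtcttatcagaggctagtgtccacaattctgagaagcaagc
Csf3r: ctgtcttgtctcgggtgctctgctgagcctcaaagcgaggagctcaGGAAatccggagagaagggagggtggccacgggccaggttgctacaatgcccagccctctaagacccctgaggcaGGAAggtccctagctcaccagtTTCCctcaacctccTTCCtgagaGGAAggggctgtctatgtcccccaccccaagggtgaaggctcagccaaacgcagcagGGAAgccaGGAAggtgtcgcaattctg

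GGAA was found 7 times in the Csf3r stretch, 5 times in that of Csf2ra and 2 times in that of Csf2rb2, counting both strands. At least 1 match stood in 93.4% of 32851 promoters of this length (median 3), and 3.82% held 7 or more. TTNCNNAA was found once, in Csf2ra, overlapping a GGAA match, and in 36.8% of all promoters. The longer PU.1 motif GAGGAAGT (2.44% of promoters), the RUNX motif TGTGGT (14.0%) and the AP-1 motif TGANTCA (6.75%) had 0 matches in these 3 windows. Csf2ra had the highest GC content, 64.8% with 17 CpG, against 60% with 6 CpG for Csf3r and 56.4% with 3 CpG for Csf2rb2 (median of all promoters 52.4% with 6 CpG).

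The 5 promoters stood in a similar order in most H3K27ac libraries. Csf2ra held the strongest peak, listed in 35 of 35 libraries at ranks 239 to 3199 (median 1171) and above each of Csf1r, Csf2rb and Csf2rb2 in 35 libraries and above Csf3r in 34. Csf3r came next, listed in 35 of 35 at ranks 652 to 23093 (median 10064), above Csf1r in 32 and above Csf2rb in 34. Csf1r was listed in 33 of 35 libraries (median rank 15550), Csf2rb in 34 (median 18425.5) and Csf2rb2 in 32 (median 28495.5). Neighbours lower in the order overlapped more: Csf1r stood above Csf2rb in 23 libraries and below it in 10, and Csf2rb above Csf2rb2 in 24 and below it in 10.

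H3K4me3 gave the same first place but a sparser picture. Csf2ra was listed in 35 of 35 libraries at ranks 2231 to 31258 (median 7946) and Csf3r in 32 (median 19901). Csf2rb was listed in 26 (median 35219.5), Csf1r in 21 (median 52418) and Csf2rb2 in 17 (median 57392). All 5 members passed the filter for testing in both marks (rank 50000 or better in at least 5 of 35 libraries).

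**Figure D1:**
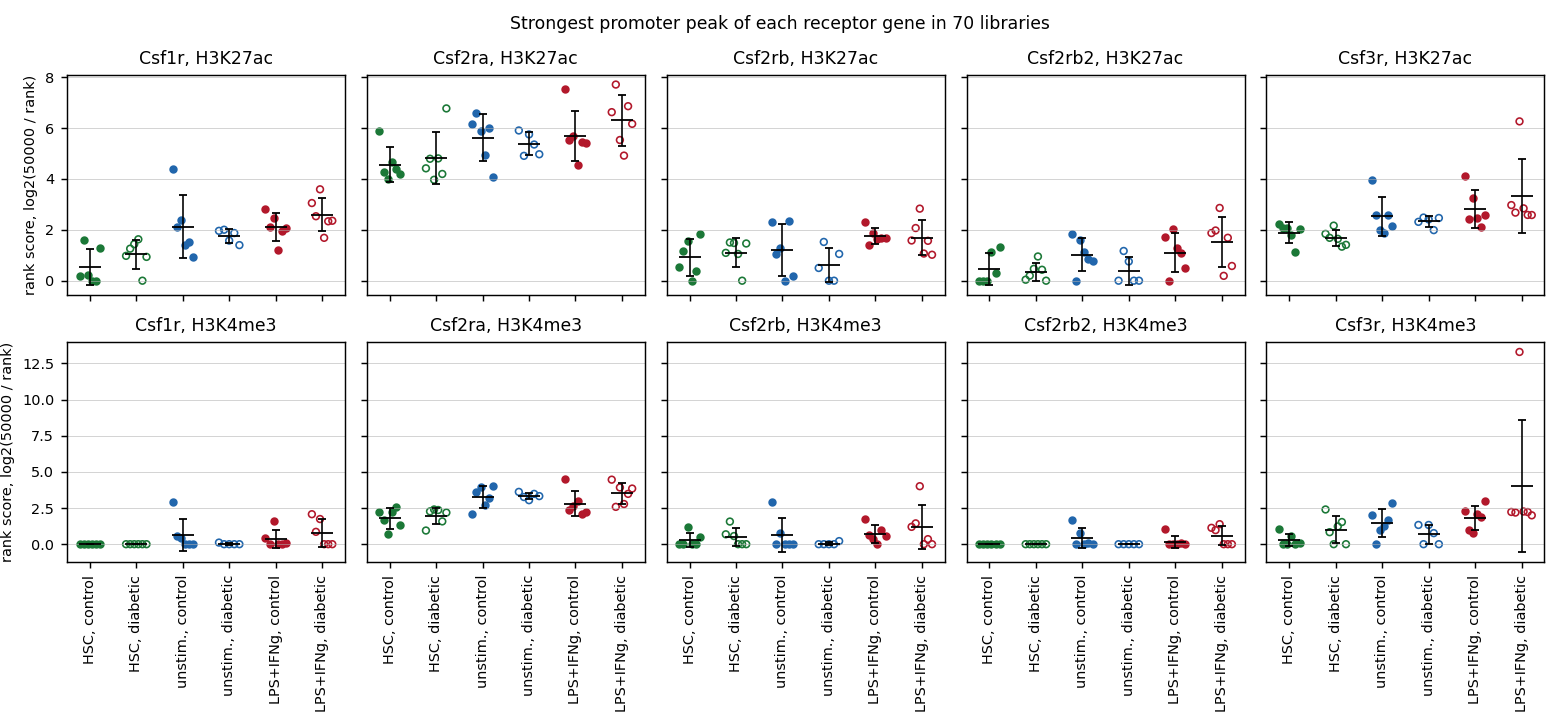
Rank score, log2(50000 / rank), of the strongest promoter peak of each receptor gene (columns) for H3K27ac (top row) and H3K4me3 (bottom row). Points are libraries, filled for control and open for diabetic mice, and black marks are means with SD (n = 5 or 6); Csf2ra sits highest in both marks, Csf1r is lower in HSC than in BMDM for H3K27ac, and 1 library of diabetic LPS+IFN-γ BMDM stands at rank 5 for Csf3r in H3K4me3.

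The first comparison, HSC against unstimulated BMDM, asked how the receptor loci differ between progenitor-rich marrow and macrophages. In H3K27ac 1 of 5 member promoters passed the test, Csf1r, which was lower in HSC, and in H3K4me3 1 of 5, Csf2ra, also lower in HSC; over all promoters tested 31.7% were called for H3K27ac (3209 higher and 1632 lower in HSC of 15268) and 12.6% for H3K4me3 (1039 higher and 957 lower of 15848). The median difference in rank score was −0.65 over the 5 members and 0.14 over all promoters in H3K27ac, and −0.33 and −0.05 in H3K4me3. Calls are at an adjusted p under 0.05 (limma, Benjamini-Hochberg over all promoters), and each contrast averages control and diabetic mice.

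Csf1r lies at chr18:61100598-61132149 of GRCm38 (ENSMUSG00000024621.16, plus strand). It was listed for H3K27ac at ranks 2391, 9533, 11500, 17476, 18881 and 25871 in unstimulated control BMDM and at 12476, 12856, 13653, 16767 and 18963 in diabetic ones. In control HSC it was listed at 16321, 20523, 43115 and 44309 and unlisted in 2 libraries, and in diabetic HSC the lowest, median and highest ranks were 16178, 23151 and 113946. HSC libraries thus lay at the weaker end, though the best HSC ranks overlapped the weakest BMDM ranks. The mean rank score was 0.79 ± 0.67 (SD, n = 12) in HSC and 1.96 ± 0.90 (n = 11) in unstimulated BMDM, and the fitted difference was −1.15 (SE 0.29, adjusted p = 0.00242 by limma). That equals a rank number 2.22 times as large in HSC when unlisted promoters and ranks past 50000 count as 50000. In HSC 9 of 12 libraries stood at rank 50000 or better, so the ratio is limited by where the scale ends.

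The call on Csf1r held when any 1 library was left out (adjusted p from 0.000952 to 0.00604), and without the 3 control BMDM libraries in doubt the difference was −1.38 (adjusted p = 0.000639). The difference was −1.58 (adjusted p = 0.00572) in control mice alone and −0.72 (adjusted p = 0.263) in diabetic mice alone, where it did not pass; the test of the difference between them gave 0.86 (SE 0.58, adjusted p = 1), which did not pass either. It was also lost when peaks were ranked on fold enrichment (−0.80, adjusted p = 0.227) and when ranks past 10000 and unlisted promoters were set to 10000 (−0.18, adjusted p = 0.580), where most Csf1r values tie. The macrophage marker promoters moved the same way, with 3 of 6 tested lower in HSC (Mertk, Cd68 and Cd14) and 0 higher, and their part in the result was not tested.

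H3K4me3 at the Csf1r promoter was often unlisted. It was listed in 0 of 6 control HSC libraries and in 3 of 6 diabetic ones (ranks 54641 to 95409), against 9 of 11 unstimulated BMDM (6755 to 103406) and 9 of 12 LPS+IFN-γ BMDM libraries (11888 to 102435). Because 5 HSC lists held fewer than 50000 peaks, ranks past 50000 could not appear in them. At rank 50000 or better the promoter was held by 0 of 12 HSC, 4 of 11 unstimulated BMDM and 6 of 12 LPS+IFN-γ BMDM libraries. The difference in rank score was −0.33 (SE 0.25, adjusted p = 0.385), which did not pass. Csf1r also has an annotated start site 4.97 kb upstream of the main one, of a processed transcript. H3K27ac was listed within 1 kb of that site in 0 of 12 HSC libraries, 8 of 11 unstimulated BMDM (median rank 29537) and 10 of 12 LPS+IFN-γ BMDM (median 47884), and H3K4me3 in none of the 35 libraries.

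Along the Csf1r gene with 20 kb to either side, H3K27ac was read in 1-kb tiles, each taking the best-ranked summit within it or within 500 bp. At rank 50000 or better the locus held 5 to 9 peaks in HSC, 10 to 22 in unstimulated BMDM and 10 to 18 in LPS+IFN-γ BMDM. They covered 1.75 to 7.23 kb (median 5.06 kb), 4.66 to 27.5 kb (10.0 kb) and 8.55 to 31.9 kb (11.2 kb). HSC and unstimulated BMDM thus overlapped in covered length. How often other loci differ in these measures was not tested. Of 18 tiles tested, 9 were lower in HSC than in unstimulated BMDM and 0 higher, where 45.8% of 68898 tiles were called genome-wide (15992 higher, 15547 lower). Adjacent tiles can share a summit and are not independent. Tiles were tested when at rank 20000 or better in at least 5 libraries. The called tiles upstream of the gene had no HSC library at that rank (best 26825). They entered the test through BMDM only, so their direction was partly set by the filter.

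Of the 9 lower tiles, 8 fell in 3 stretches. Around the main start site (61105572), chr18:61105001-61106000 differed by −1.10 (SE 0.32, adjusted p = 0.00473) and chr18:61106001-61107000, in the intron that follows, by −1.23 (SE 0.31, adjusted p = 0.00128); chr18:61107001-61108000 differed by −0.91 (adjusted p = 0.0281), a call lost without unstimulated control BMDM replicate 1 (adjusted p = 0.0685) or without control HSC replicate 1, 4 or 5. In the intergenic stretch upstream, centred at −16.1 to −13.1 kb from the start, chr18:61089001-61091000 differed by −1.25 (SE 0.27, adjusted p = 0.000256) and chr18:61092001-61093000 by −0.75 (adjusted p = 0.00984). Farther up, chr18:61083001-61085000 lies in exons and introns of Pdgfrb, a neighbouring receptor gene, and its 2 tiles differed by −1.15 and −1.11 (adjusted p = 0.000347 and 0.000259).

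Farther into the gene, tiles that did not pass stood beside one that did. The intron tile chr18:61108001-61109000, centred 2.93 kb downstream of the start, was held by all 35 libraries, at ranks 10732 to 45468 (median 17010) in HSC, 8701 to 54137 (median 15234) in unstimulated BMDM and 4333 to 19720 (median 12142.5) in LPS+IFN-γ BMDM. Its difference between HSC and unstimulated BMDM was −0.01 (SE 0.28, adjusted p = 0.984), with an interval of 2 SE from −0.57 to 0.55. The next tile, chr18:61109001-61110000, differed by −0.35 (adjusted p = 0.291), and the one after it, chr18:61110001-61111000, by −0.89 (adjusted p = 0.00865). The result for that last tile did not stay the same in 4 of 7 other settings (−1.05 to 0). In the 3′ part of the gene, which meets the end of Hmgxb3, 6 tested tiles from 61127001 on differed by −0.08 to −0.52 and did not pass. Csf1r is known for a conserved enhancer in an early intron, and whether these summits lie in it was not tested.

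**Figure D2:**
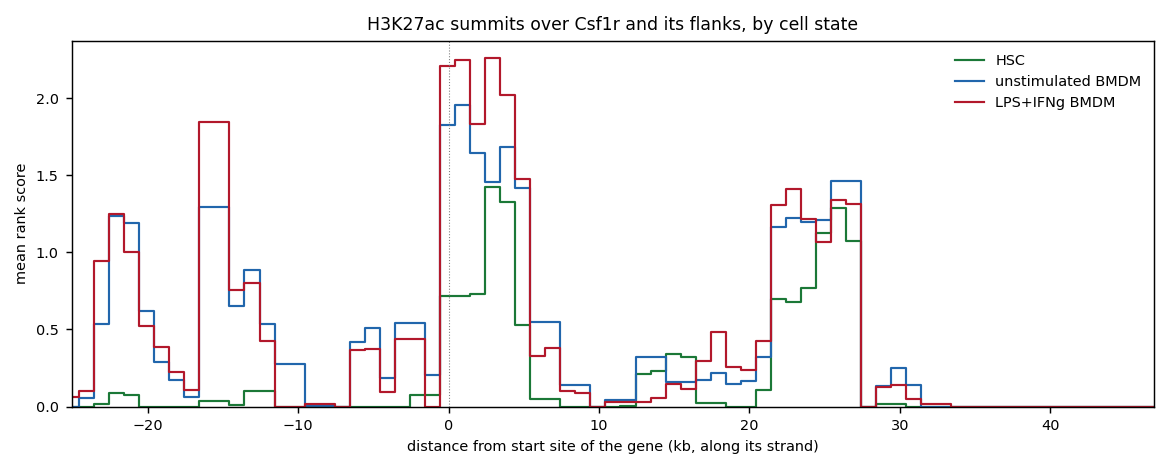
Mean H3K27ac rank score of 1-kb tiles over Csf1r and 20 kb to either side, by distance in kb from the main start site along the gene, for HSC (n = 12), unstimulated BMDM (n = 11) and LPS+IFN-γ BMDM (n = 12). The HSC line lies below both BMDM lines at the start site and in the upstream tiles named in the text, and comes level with that of unstimulated BMDM, but not of stimulated BMDM, in the tile centred 2.93 kb downstream.

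The strongest intron summit of Csf1r was found in 35 of 35 libraries. It lay at a median of 3062.5 bp from the start in HSC, 3571 bp in unstimulated BMDM and 3059 bp in LPS+IFN-γ BMDM, with ranges of 2487 to 4085, 2555 to 4129 and 1643 to 4031 bp that overlapped. Its rank was 10732 to 45468 (median 15475.5) in HSC, 8701 to 22083 (median 15081) in unstimulated BMDM and 4333 to 13680 (median 11553) after stimulation. The rank ranges of this intron summit overlapped in all 3 cell states.

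To set both sites against each other within a library, the rank score of the start tile was taken from that of the intron tile, a measure chosen after these values were seen. The intron tile scored higher in 9 of 12 HSC libraries and in 3 of 11 unstimulated BMDM libraries. The within-library difference was 0.71 ± 0.87 (SD, n = 12) in HSC and −0.37 ± 0.87 (n = 11) in unstimulated BMDM, 1.08 apart. Because the 2 tiles were picked for this contrast, the gap is a description and carries no test. Without the 3 control BMDM libraries in doubt it was 1.34 (n = 12 and 9).

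The gap was 1.28 in controls (n = 6 and 6) and 0.89 in diabetic mice (n = 6 and 5), with the intron tile higher in 5 of 6 HSC and 2 of 6 unstimulated BMDM libraries of controls and in 4 of 6 and 1 of 5 of diabetic mice. In LPS+IFN-γ BMDM the difference was 0.05 ± 0.70 (n = 12), 0.42 above unstimulated BMDM, and the intron tile was higher in 5 of 12 libraries. In 4 HSC libraries the start tile stood at 0, unlisted or weaker than rank 50000, so that the gap there is limited by where the scale ends.

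**Figure D3:**
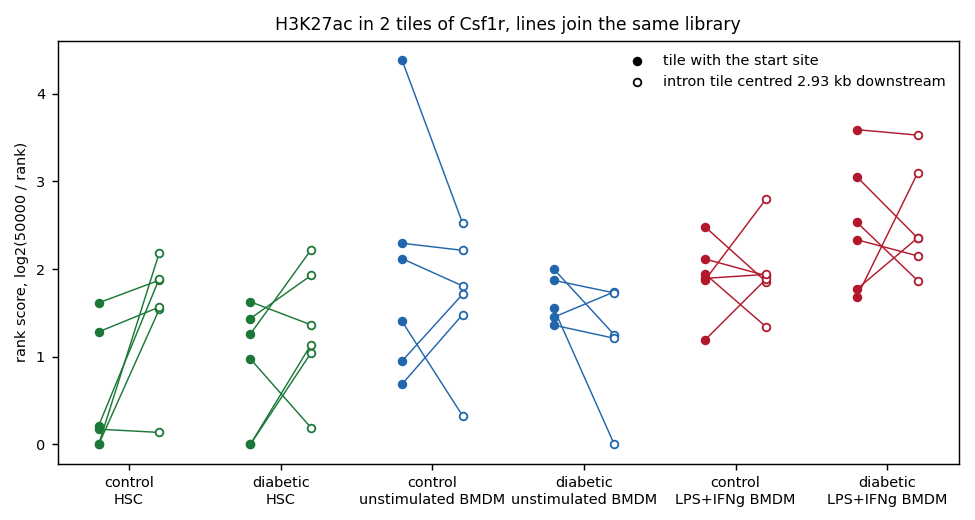
H3K27ac rank score of the Csf1r tile holding the start site (filled) and of the intron tile centred 2.93 kb downstream (open), with lines joining the 2 tiles of each library, for the 6 groups. In HSC the lines rise in 9 of 12 libraries and in unstimulated BMDM in 3 of 11.

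Csf3r, the granulocyte colony-stimulating factor receptor, was listed for H3K27ac in all libraries, at ranks 10553 to 23093 (median 14202) in HSC and 3228 to 13483 (median 9412) in unstimulated BMDM. The ranges overlapped, and the difference in rank score was −0.65 (SE 0.31, adjusted p = 0.11). For H3K4me3 it was listed in 9 of 12 HSC libraries (9474 to 78224) and 11 of 11 unstimulated BMDM libraries (6895 to 87059), a difference of −0.43 (SE 0.74, adjusted p = 0.727). At rank 50000 or better it was held by 7 of 12 HSC and 8 of 11 unstimulated BMDM libraries.

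At the Csf3r locus the tiles at the start site, chr4:126024001-126026000, differed by −0.65 and −0.78 (adjusted p = 0.0886 and 0.0599) and did not pass; the second of them passed without unstimulated control BMDM replicate 4. The 2 tiles higher in HSC lay outside the gene, at chr4:126057001-126059000, beside and over the start site of Oscp1, with differences of 1.65 (SE 0.32, adjusted p = 6.85e-05) and 1.38 (SE 0.30, adjusted p = 0.000278). The start of Mrps15, a mitochondrial ribosome gene 3′ of Csf3r, stood at ranks 3708 to 12336 in all 35 libraries and with a difference of −0.06 (adjusted p = 0.857).

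Csf2ra, the alpha chain, was listed for H3K4me3 in HSC at ranks 8434 to 31258 (median 10870) and in unstimulated BMDM at 3073 to 11592 (median 4994). Of 11 BMDM libraries only control replicate 1 (11592) lay beyond the best HSC rank. The mean rank score was 1.87 ± 0.62 (SD, n = 12) in HSC and 3.31 ± 0.55 (n = 11) in unstimulated BMDM, and the fitted difference was −1.44 (SE 0.35, adjusted p = 0.00760), a rank number 2.71 times as large in HSC. The call held when any 1 library was left out (adjusted p from 0.00572 to 0.0165), and it was lost in control mice alone (−1.49, adjusted p = 0.0769), in diabetic mice alone (−1.39, adjusted p = 0.178) and on fold enrichment (−1.08, adjusted p = 0.276).

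In H3K27ac Csf2ra stood at ranks 458 to 3199 (median 2366.5) in HSC and 521 to 2931 (median 929) in unstimulated BMDM, ranges that overlapped, and the difference of −0.80 (SE 0.38, adjusted p = 0.103) did not pass. Diabetic HSC replicate 6, at rank 458, stood apart from the other diabetic HSC libraries (control HSC replicate 1 stood at rank 844). Its list was the shortest of the 35 H3K27ac lists, with 51162 peaks. Without diabetic HSC replicate 6 the difference was −0.998 (adjusted p = 0.0330). Within the gene the difference was uneven. The tile with the main start, chr19:61228001-61229000, was lower in HSC by −1.50 (SE 0.37, adjusted p = 0.00105), whereas chr19:61226001-61227000, 1.93 kb into the gene and over further annotated starts, was higher by 0.86 (SE 0.36, adjusted p = 0.0487).

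The second of these tile calls was fragile. It was lost in 15 of 23 fits that left out 1 library, whose adjusted p ranged from 0.0113 to 0.112: any of HSC replicates 1, 2, 4, 5 and 6 of control mice and 2, 4 and 6 of diabetic mice, or any of unstimulated BMDM replicates 1, 2, 3 and 6 of control mice and 1, 2 and 4 of diabetic mice. When whole peak intervals were laid over tiles instead of summits, both tiles took the same peak and differed by −0.80, where the locus held a median of 1 peak, with a median covered length of 3.88 kb in HSC and 3.96 kb in unstimulated BMDM.

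The promoters of the beta chain genes did not pass the test in either mark. Csf2rb was listed for H3K27ac at ranks 13964 to 58626 (median 22703) in HSC and 9755 to 73969 (median 24008.5, 1 library unlisted) in unstimulated BMDM, a difference of 0.10 (SE 0.28, adjusted p = 0.815) with an interval of 2 SE from −0.45 to 0.65. Csf2rb2 was listed in 10 of 12 HSC libraries (19901 to 72830) and 10 of 11 unstimulated BMDM libraries (13843 to 68527), a difference of −0.30 (SE 0.27, adjusted p = 0.412). In H3K4me3 Csf2rb differed by 0.05 (SE 0.34, adjusted p = 0.944) and Csf2rb2, with 0 of 12 HSC libraries at rank 50000 or better, by −0.21 (SE 0.18, adjusted p = 0.429).

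Inside both beta chain genes, tiles away from the start were lower in HSC. In Csf2rb chr15:78329001-78331000, 3.75 to 4.75 kb into the gene, differed by −0.80 (SE 0.28, adjusted p = 0.0174) and −0.85 (SE 0.26, adjusted p = 0.00697). For each of these tiles the result did not stay the same in 4 of 7 other settings (−0.93 to 0 and −0.94 to 0). In Csf2rb2 6 of 12 tested tiles were lower and 0 higher, a share near the 45.8% of all tiles; 4 of the 6 lay in introns and 2 over exons, and they ran from −0.64 at chr15:78296001-78297000, which holds an exon, to −1.04 at chr15:78301001-78302000 (SE 0.31, adjusted p = 0.00508), an intron tile centred 4.22 kb from the start. The tile chr15:78296001-78297000 lost its call without unstimulated control BMDM replicate 1 or unstimulated diabetic BMDM replicate 2 or 4, and the adjusted p ranged from 0.0173 to 0.0854 over the fits without 1 library. Its result also did not stay the same in 4 of 7 other settings (−0.88 to 0). Because the 2 genes are alike in sequence, tiles at similar depth within them may not be independent of each other. The called tiles of both genes had no HSC library at rank 20000 or better (best 21870 in Csf2rb and 22048 in Csf2rb2). They passed the filter for testing through BMDM only, so their direction was partly set by it.

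Over all 5 loci 49 distinct tiles were tested, and 18 were lower and 3 higher in HSC than in unstimulated BMDM, a share near the 45.8% of all tiles. The lower tiles upstream of Csf1r and inside the beta chain genes passed the filter through BMDM only, which limits what the direction shows. Every tile call of this comparison except that on chr19:61228001-61229000 was lost when ranks past 10000 were tied at 10000, which leaves few differences at sites ranked near that value.

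**Figure D4:**
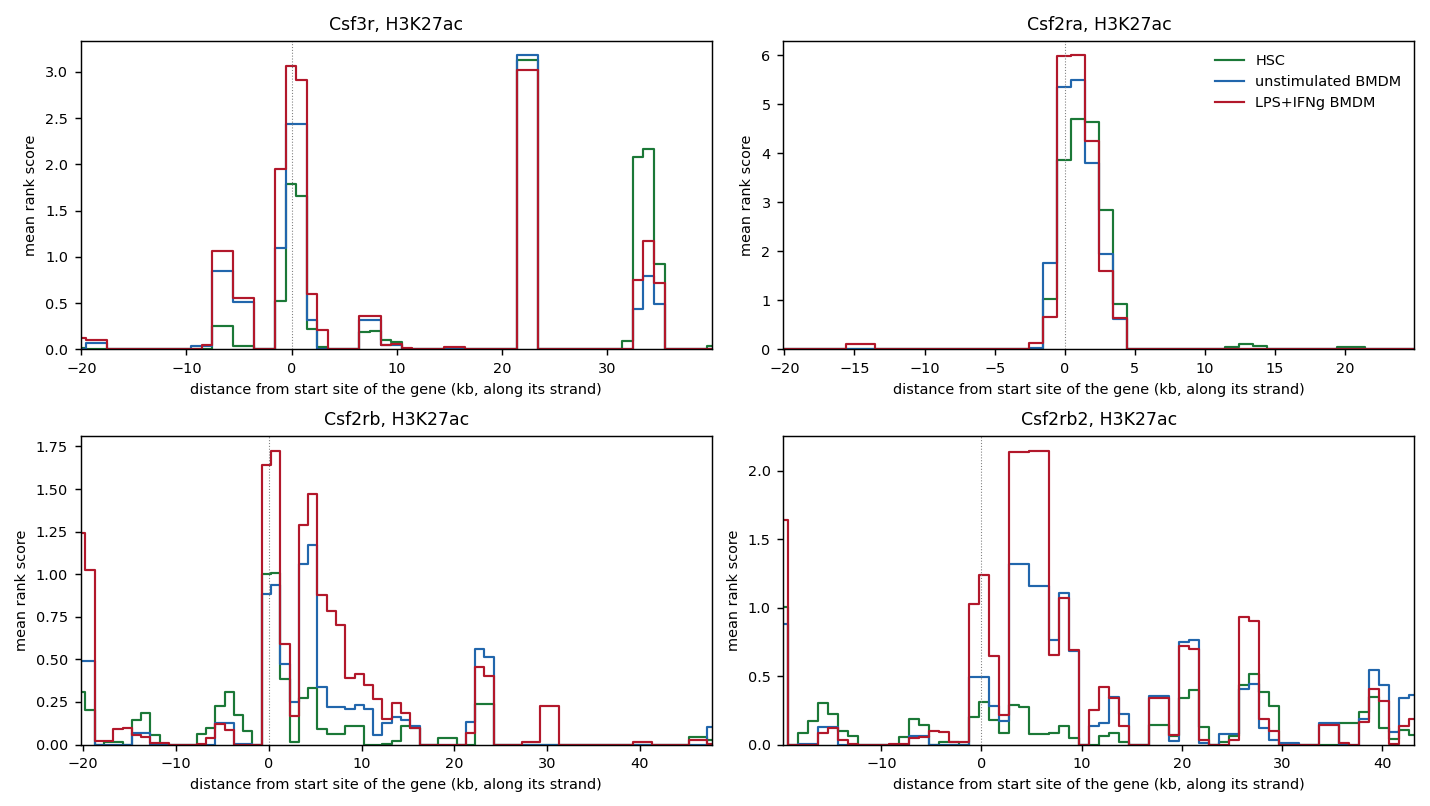
Mean H3K27ac rank score of 1-kb tiles over Csf3r, Csf2ra, Csf2rb and Csf2rb2 with 20 kb to either side, by distance in kb from the start site along each gene's strand, for the 3 cell states. The Csf2ra start region reaches the highest scores, the Csf3r window shows the Mrps15 start and the Oscp1 start downstream, and the introns of Csf2rb and Csf2rb2 are lower in HSC.

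The second comparison asked what stimulation with LPS+IFN-γ does to the receptor loci. In H3K27ac 0 of 5 member promoters were called by limma, against 2.23% of all promoters (139 higher and 201 lower). An unadjusted p under 0.05 was found for 3 of 5 members and for 2620 of all 15268 promoters. Averaged over control and diabetic mice, all 5 differences were above 0, from 0.40 for Csf1r to 0.82 for Csf2rb (SE 0.27 to 0.38, adjusted p from 0.106 to 0.520). Their median was 0.61, against −0.06 over all promoters. In H3K4me3 0 of 5 were called (1 at an unadjusted p under 0.05), and of all 15848 promoters 0% were called, with 890 at an unadjusted p under 0.05.

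Csf2rb came nearest. It was listed for H3K27ac at ranks 7022 to 24657 (median 15928) in all 12 stimulated libraries, against 9755 to 73969 and 1 unlisted library without stimulation, so the groups overlapped. Its difference of 0.82 (SE 0.28) had an adjusted p of 0.106, and passed without unstimulated control BMDM replicate 5 (0.93, adjusted p = 0.0473). Csf2rb2 differed by 0.61 (adjusted p = 0.232), Csf3r by 0.64 (adjusted p = 0.285) and Csf2ra by 0.50 (adjusted p = 0.520). In control mice alone the Csf1r difference was −0.03 in place of 0.40.

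The Csf3r promoter showed the largest H3K4me3 difference after stimulation, 1.86 (SE 0.74, adjusted p = 0.807). Its ranks were 6265 to 28755 in stimulated control BMDM, while in diabetic mice they were 5 in replicate 3 and 10435 to 12552 in the other 5 libraries. Without replicate 3 the difference was 0.94. In the H3K27ac library of the same group and replicate number, Csf3r stood at rank 652, macrophage markers summed to 18.6 against 6.18 to 9.20 in the other diabetic stimulated libraries, and stem and progenitor markers summed to 0.034 against 3.38 to 10.4; their part in the value was not tested.

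Of the 49 tiles, 1 was called after stimulation, where 5.73% of all tiles were (2716 higher, 1229 lower) and 15 of the 49 had an unadjusted p under 0.05, against 14014 of all 68898. The called tile lies upstream of Csf2ra, at chr19:61229001-61230000, and was lower after stimulation by −1.18 (SE 0.34, adjusted p = 0.0338). It was listed in 10 of 11 unstimulated libraries (median rank 9518.5) and 8 of 12 stimulated ones (median 33243). The call was lost in 10 of 23 fits without 1 library (adjusted p 0.00610 to 0.0702 over all 23), namely control LPS+IFN-γ replicate 1 or 2, diabetic LPS+IFN-γ replicate 2, 3 or 5, unstimulated control replicate 4, 5 or 6 or unstimulated diabetic replicate 5 or 6, and without the 3 control BMDM libraries in doubt (−0.83, adjusted p = 0.128).

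Sites inside Csf2rb2 and Csf1r came close to the threshold after stimulation. The Csf2rb2 intron tiles at chr15:78299001-78301000 were 1.03 higher, with ranks from 1032 (median 12698.5) in stimulated libraries and from 6909 (median 20667) in unstimulated ones, and the Csf1r intron tile at chr18:61108001-61109000 was 0.83 higher. Neither passed over all libraries, and both passed in diabetic mice alone (1.86, adjusted p = 0.0212, and 1.37, adjusted p = 0.0377) and not in control mice alone (0.20 and 0.28, adjusted p = 1). In control mice alone 0 of all tiles were called after stimulation, so failing there does not set these tiles apart. Unstimulated control replicates 1, 2, 3, 5 and 6 resembled the stimulated state more than their own in H3K27ac. The test of the difference between diabetic and control mice did not pass for either site (1.67, adjusted p = 0.602, and 1.09, adjusted p = 0.684). Both also passed without control LPS+IFN-γ replicate 5 or unstimulated control replicate 1, and the Csf2rb2 tiles without diabetic LPS+IFN-γ replicate 2 or 6 or unstimulated diabetic replicate 1.

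The third comparison set diabetic against control mice within each cell state. In H3K27ac 0 of 5 members were called in any of the 3 cell states, HSC first, then BMDM without and with stimulation (0 at an unadjusted p under 0.05 in each), against 0.00655%, 0% and 0% of all promoters, of which 370, 871 and 572 had an unadjusted p under 0.05. In H3K4me3 0 members were called (0, 0 and 1 at an unadjusted p under 0.05), against 0%, 0% and 0% of all promoters, with 611, 603 and 863 at an unadjusted p under 0.05. Of all tiles 0.00726%, 0.00435% and 0% were called (1782, 4333 and 3252 at an unadjusted p under 0.05), and 0 of the 49 member tiles (1, 5 and 1).

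None of the members' disease differences passed. In HSC they ran from −0.21 (Csf3r) to 0.49 (Csf1r) in H3K27ac, with SE of 0.37 to 0.52. In unstimulated BMDM all 5 lay below 0, from −0.20 (Csf3r) to −0.64 (Csf2rb2), and in LPS+IFN-γ BMDM 4 of 5 lay above 0, up to 0.60 (Csf2ra), with adjusted p from 0.906 to 1. For Csf1r the interval of 2 SE was −0.31 to 1.3 in HSC, −1.21 to 0.48 in unstimulated BMDM and −0.31 to 1.3 in stimulated BMDM.

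H3K4me3 at Csf3r in stimulated BMDM had the largest disease difference of the family, 2.2 (SE 1.02, adjusted p = 0.860), and it was 0.34 without diabetic replicate 3. Whether the disease difference itself varied between cell states was tested for the 5 members in both marks, HSC or LPS+IFN-γ BMDM against unstimulated BMDM. Of these 20 tests 0 passed, with a lowest adjusted p of 0.816.

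**Figure D5:**
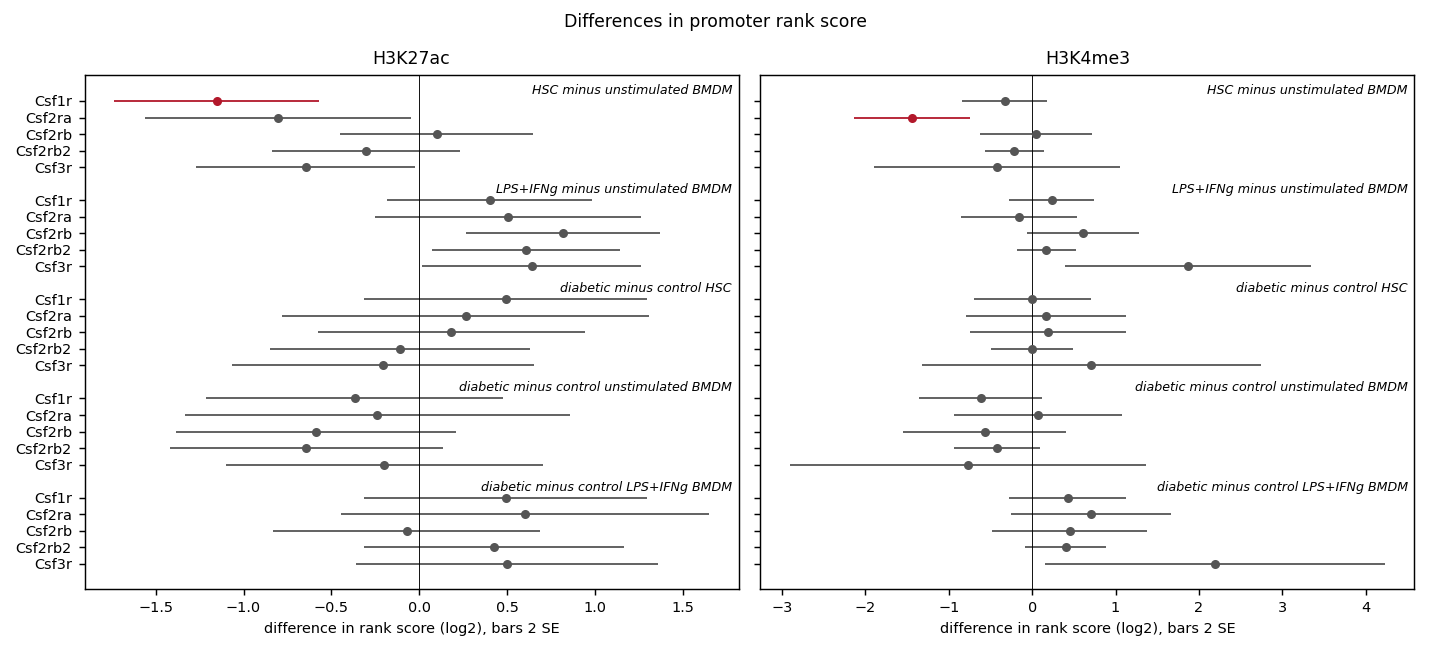
Differences in promoter rank score (log2 scale) of the 5 receptor genes in the 5 comparisons for H3K27ac (left) and H3K4me3 (right). Points are fitted differences and bars are 2 SE, red where the adjusted p was under 0.05; the called points are Csf1r in H3K27ac and Csf2ra in H3K4me3, both for HSC minus unstimulated BMDM.

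The other genes of the pathway were read from a list of 22, made up of ligands, receptor chains that pair with the common beta chain and signalling proteins. In H3K27ac 18 were tested, and 1 was higher and 4 were lower in HSC than in unstimulated BMDM (median −0.23 against 0.14 over all promoters), a share near the 31.7% of all promoters called. Il3ra, the interleukin 3 receptor alpha chain, was lower by −2.33 (SE 0.50, adjusted p = 0.000424). Lyn, a kinase that acts early in cytokine receptor signalling, was lower by −1.49 (SE 0.32, adjusted p = 0.000366).

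Socs3, an inhibitor of cytokine signalling that acts on the granulocyte colony-stimulating factor receptor, was lower by −1.13 (SE 0.36, adjusted p = 0.0140), while Cish, an inhibitor induced through STAT5, was higher by 1.07 (SE 0.24, adjusted p = 0.000733). In H3K4me3 2 of 19 tested were lower, among them Il3ra by −1.71 (SE 0.50, adjusted p = 0.0230), and 0 were higher, near the 12.6% of all promoters. In the stimulation and disease comparisons 0 of these genes were called by limma in either mark. Among the ligands the promoter of Il5 had no peak of either mark at rank 50000 or better in any group.

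Across the 35 H3K27ac libraries the promoter scores of the members moved together to differing degrees, given here as descriptions since the libraries share cell states. Pearson's r was 0.744 between Csf1r and Csf3r, 0.648 between Csf2rb2 and Csf3r, 0.533 between the 2 beta chain genes and 0.365 between Csf2ra and Csf2rb. The genes whose promoter scores were most like a member's, over the same 35 libraries, were Pld4 (r = 0.862), 9930022D16Rik (0.85) and Anpep (0.842) for Csf1r and Cd68 (0.901), Lat2 (0.893) and Galnt6 (0.89) for Csf3r. For Csf2rb2 they were Galnt6 (0.762), Zbp1 (0.743) and Ptges (0.74), for Csf2rb Alkbh6 (0.729), Gys1 (0.685) and Ruvbl2 (0.685), and for Csf2ra Pelo (0.701), Rab32 (0.685) and C3 (0.663). Csf2ra thus had the weakest likeness to any other promoter and Csf3r the strongest.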

How the data were processed

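Peak lists of 70 libraries were used, 35 for each mark; 106 samples were labelled, and the 36 input libraries were not used. The authors sequenced the libraries as 50-bp single reads and called peaks in each library with MACS2, and the submitters' processing notes name MACS2 2.2.7.1, Bowtie2 2.2.6, Trim Galore 0.3.3, Picard 2.18.14 and 2.19.2 and bedtools 2.19.1, with no order given. The deposited lists give for every peak a score, a fold enrichment (a ratio to background), a −log10 p and a −log10 q (the score is 10 times the −log10 q, truncated). Read depth is not in them, so its effect on the number and p-values of peaks could not be corrected for, and ranks were used to lessen it.

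Summits of 1 interval were merged to 1 peak, keeping the best −log10 p. Promoters came from the GENCODE M21 annotation of GRCm38 (93513 start sites). Rank scores were fitted with limma 3.58.1 in R 4.3.3 (empirical Bayes with a trend), in 1 model for each mark over its 6 groups, with 5 contrasts and Benjamini-Hochberg adjustment over all promoters, or over all 1-kb tiles with rank 20000 or better in at least 5 libraries. The fit was tested on simulated H3K27ac promoter scores, with normal noise, no floor and changes placed in diabetic HSC. Tiles, H3K4me3 and the other contrasts were not simulated. Named genes were the 5 members, up to 4 pathway genes with values and the 3 promoters most like each member (1 pathway gene is counted but not reported here); tiles were eligible to be named when called or when held by at least 5 libraries of a group. The members and lists were chosen with earlier results of these data known.

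The study's methods count individual animals as replicates, while the labels give only a replicate number. Alternatives changed the floor of the rank scale, the filters, the promoter width, the ranking column, the overlap, the samples and the block on replicate number. Fits without the 5 short H3K4me3 lists, and tile fits within control or diabetic mice, were added after the data were seen.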

Additional observations from a re-analysis of the deposited data

Results flagged for a closer look

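In every group, which held 5 or 6 libraries, the highest and the lowest were tested for standing apart: the gap to the nearest of the rest had to be a large share of the group's range (Dixon's test at the 95% level), which chance alone does in about 1 of 20 groups; 14 of 60 groups of promoter rank scores held such a library. Of these, 6 carried the same 2 group and replicate labels, with a separate library for each mark. In diabetic LPS+IFN-γ BMDM replicate 3 stood highest for Csf3r in H3K4me3 (rank score 13.29, rank 5) and in H3K27ac (6.26, rank 652) and for Csf2rb in H3K4me3 (4.01, rank 3107). In unstimulated control BMDM replicate 1 stood highest for Csf1r in H3K4me3 (2.89, rank 6755), Csf2rb in H3K4me3 (2.92, rank 6585) and Csf3r in H3K27ac (3.95, rank 3228). Macrophage markers summed to 19.8 in the H3K27ac library of that replicate. Replicate numbers are reused across marks, and whether the same animal stands behind both marks was not tested.

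In control LPS+IFN-γ BMDM, Csf1r in H3K4me3 was highest in replicate 3 (1.6, rank 16497), and in replicate 1 Csf2ra (4.49, rank 2231) and Csf2rb2 (1.02, rank 24699) were. In unstimulated diabetic BMDM, H3K4me3 stood apart at Csf1r in replicate 1 (0.11, rank 46298) and at Csf2rb in replicate 6 (0.21, rank 43126). In both of these groups every other library sat at a score of 0, the end of the scale (2 of the 4 others were listed, past rank 50000), so that any value above 0 is singled out and the rate of 1 in 20 does not hold there; other H3K4me3 groups with scores tied at 0 share this limit in part. In HSC, Csf2ra in H3K27ac was highest in control replicate 1 (5.89, rank 844) and in diabetic replicate 6 (6.77, rank 458, in the shortest H3K27ac list), and Csf2rb was lowest in diabetic replicate 5 (0, rank 55801).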

How the results depend on the processing

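Peak ranks carry no depth, values near the end of the scale are compressed, and groups of 5 or 6 left differences of about the size of the errors undetected. With a block on replicate number (replicate block), H3K27ac promoter calls were 4690 for HSC minus unstimulated BMDM, 174 for stimulation and 0 for disease in HSC, tile calls for disease in unstimulated BMDM 0, and Csf2rb in H3K4me3 turned to −0.10 for HSC; Csf3r in H3K27ac then passed for HSC (−0.82, adjusted p = 0.0109). Deviations of same-numbered libraries from their group means had median correlations of −0.085 to 0.129 between groups, libraries did not all correlate best with their own number, and the numbers were treated as names. The cause of the changes below was not tested. For HSC minus unstimulated BMDM, H3K27ac promoter calls were 2920 with the floor at rank 10000, 3209 on fold enrichment, 2445 in control and 2347 in diabetic mice; H3K4me3 calls were 733, 632, 336 and 68, 1231 without the 3 BMDM libraries in doubt and 843 without the 5 short lists; tile calls were 6128 (floor 10000), 12789 (filter at rank 10000), 20232 and 18260. For stimulation, H3K27ac promoter calls were 121 (floor 10000), 155 (no filter), 37 (fold), 933 (without the 3 libraries) and 0 (control mice), tile calls 232, 1592 (filter at rank 10000), 7516 and 0, and H3K4me3 calls 1 without the 3 libraries. For disease in HSC, H3K27ac promoter calls were 2 (floor 10000), 0 (floor 100000), 5 (no filter), 0 (500 bp) and 0 (fold), H3K4me3 calls 5 (floor 10000) and 5 (without the short lists), and tile calls 0 (filter at rank 10000) and 23 (intervals); for unstimulated BMDM tile calls were 0 and 1, and for stimulated BMDM 2 without the 3 libraries.

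Leaving out 1 library gave H3K27ac promoter calls of 4542 to 4813 (HSC), 184 to 600 (stimulation), 0 to 4, 0 to 1 and 0 to 0 (disease in HSC, unstimulated and stimulated BMDM), H3K4me3 calls of 1352 to 2394, 0 to 4, 0 to 2, 0 to 1 and 0 to 2, and tile calls of 29857 to 31366, 2476 to 5858, 3 to 16, 0 to 6 and 0 to 8.

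Some values changed sign, and apart from 2 tiles (61226001 for HSC and 61229001 for stimulation) none of these had passed the test. With the floor at 10000, Csf2rb in H3K27ac was −0.0030 (HSC) and 0.085 (disease, stimulated), and in H3K4me3 Csf2rb was −0.0502 (HSC), Csf1r −0.0472 (stimulation) and Csf2ra −0.0213 (disease, HSC); with the floor at 100000 Csf2rb was −0.0201 (HSC). On fold enrichment Csf2ra in H3K27ac was −0.37 (stimulation) and 0.33 (disease, unstimulated), and in H3K4me3 Csf1r was −0.17 (stimulation) and Csf2ra −0.16 (disease, stimulated). Without the 3 libraries Csf2rb (HSC) was −0.11 and Csf2ra (stimulation) 0.0026 in H3K4me3. In control mice Csf2rb was −0.28 (H3K27ac) and −0.33 (H3K4me3) for HSC, and for stimulation Csf1r was −0.0269 (H3K27ac) and −0.29 (H3K4me3) and Csf2rb2 −0.24 (H3K4me3); tile 61229001 was 0.14 for HSC. In diabetic mice Csf3r was 0.31 (HSC) and Csf2ra 0.17 (stimulation) in H3K4me3. Without the short lists Csf2rb in H3K4me3 was −0.0283 (disease, HSC). With intervals, tiles 61225001 and 61226001 were −0.80 for HSC and tile 61229001 was 0.61 for stimulation.

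Without 1 library, H3K27ac values ran for Csf2rb from −0.0208 to 0.22 (HSC), −0.0015 to 0.40 (disease, HSC) and −0.30 to 0.0619 (disease, stimulated), for Csf3r from −0.33 to 0.09 (disease, unstimulated) and −0.0875 (without diabetic replicate 3) to 0.76 (disease, stimulated), for Csf1r from −0.60 to 0.09 (disease, unstimulated), for Csf2rb2 from −0.23 to 0.0643 and for Csf2ra from −0.13 to 0.53 (disease, HSC). H3K4me3 values ran for Csf2rb from −0.0635 to 0.28 (HSC), −0.0308 to 0.37 (disease, HSC) and −0.12 to 0.68 (disease, stimulated), and for Csf2ra from −0.16 to 0.22 (disease, unstimulated) and −0.052 to 0.37 (disease, HSC).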
